A study of Mus musculus with 369 samples.

Results

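The 10 genes described here encode an inflammasome and the first cytokines of an inflammatory response. They are Tnf, Il1a, Il1b, Il18, Nlrp3, Nek7, Casp1, Pycard, Nfkbia and Tnfaip3. The choice was by name out of the 23337 genes of the count table, with earlier results of these data known. All 10 were found in the table. They were followed in single microglia, the resident macrophages of the brain, from male C57BL/6J mice at postnatal day 7, whole brain, with 1 cell sorted per well and full-length cDNA amplified by Smart-seq2. The 4 groups combine genotype (wild type or TREM2_KO) with the sorting gate. The gate labelled CD45lowCD11+ is called unselected here, and the gate labelled CD45lowCD11+Gpnmb+Clec7a+, which adds 2 surface proteins, is called gated. Trem2 encodes a lipid-sensing receptor of microglia, and the sources used here give neither the deleted part of the gene nor the number of mice. The authors' 3 quality criteria (total counts, detected genes and correlation with the spike-in RNAs) left out 35 cells and passed 334: of wild type 78 unselected and 90 gated, and of the knockout 90 unselected and 76 gated. Where 4 values follow each other below, they are in this same order, wild type before knockout and unselected before gated.

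Inflammasomes are complexes built in the cytosol of myeloid cells. A sensor such as NLRP3, helped by the kinase NEK7, gathers the adaptor ASC (gene Pycard), which in turn gathers and activates the protease caspase-1, and caspase-1 cuts the precursors of IL-1β and IL-18 into their secreted forms. Transcription of Il1b, Tnf and Nlrp3 is classically raised by NF-kB in a priming step, and the same factor raises its own inhibitors, among them IκBα (Nfkbia) and A20 (Tnfaip3). In microglia, TNF, IL-1α and IL-1β are the cytokines most often read as signs of acute activation.

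Each group came from 1 plate and the labels name no animal, so each group is 1 sample, plate and group cannot be told apart, and no p-value or standard error between groups was computed. All intervals are 95% intervals of the counting alone; reads amplified from a single cell are no independent molecules, and the choice of cells and mice adds spread that the intervals leave out. Passing cells held between 157653 and 1051282 gene counts. The median number of genes detected per cell was 2608, 3163, 2184 and 3995, and the median number of gene counts per spike-in count was 24.9, 39.8, 18.1 and 53.7. Trem2 stood at 1115, 1604, 229 and 413 counts per 1000000 gene counts (CPM). A list of 10 microglia markers summed to between 25221 and 48718 CPM in each group, with all 10 at 5 CPM or more. Among 10 monocyte markers, Ly6c2, Ccr2, Chi3l3 and Ly6c1 were at 0 counts in all groups, and the summed level of the list was 1.54, 1.47, 6.27 and 10.3 CPM. The 1 marker that reached 5 CPM was Fn1 in knockout gated cells, where it was higher than in knockout unselected (log2 3.46) and wild-type gated cells (3.21). In the summaries below, a gene's level is its summed count over the passing cells of a group divided by their summed gene counts, in CPM. Shares of cells with an RNA were taken after each cell had been thinned at random to 100000 gene counts.

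The sequences just upstream of the transcription starts are shown because 3 of the 4 cytokine genes carry a TATA box there. Both inhibitor genes have a kappaB match there, Tnfaip3 at only 1 of its RefSeq starts. The sequences are from RefSeq (GRCm38.p6), on the strand of the gene, 5′ to 3′, and end 1 base before the start. Capitals mark TATAAA, or a match to the kappaB consensus read on either strand. Il18, the cytokine gene with neither, and Pycard, the member at the highest level, are given for comparison.
Tnf, chr17:35202008-35202067, minus strand: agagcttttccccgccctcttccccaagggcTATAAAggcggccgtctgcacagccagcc
Il1a, chr2:129309973-129310032, minus strand: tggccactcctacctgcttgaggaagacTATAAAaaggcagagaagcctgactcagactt
Il1b, chr2:129371140-129371199, minus strand: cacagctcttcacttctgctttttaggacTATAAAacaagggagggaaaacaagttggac
Il18, chr9:50554640-50554699, plus strand: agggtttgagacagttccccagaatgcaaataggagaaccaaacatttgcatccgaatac
Nfkbia, chr12:55492648-55492707, minus strand: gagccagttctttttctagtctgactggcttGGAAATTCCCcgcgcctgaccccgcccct
Tnfaip3, chr10:19015411-19015440, minus strand: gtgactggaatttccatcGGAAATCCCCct
Pycard, chr7:127993868-127993927, minus strand: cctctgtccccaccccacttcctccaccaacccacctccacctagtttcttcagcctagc

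TATAAA on the gene's strand began 29 bases before the start of Tnf, 32 before that of Il1a and 31 before that of Il1b. Il18 held it only on the other strand, 175 bases before the start. Across 32851 RefSeq promoter windows of 300 bases (250 before to 50 after the start), 13.6% held TATAAA on either strand, and 1.99% held it on the gene's strand with its first base 40 to 20 bases before the start. The kappaB consensus was matched 29 to 20 bases before the start of Nfkbia and 12 to 3 bases before the start of Tnfaip3 shown above. It was also matched 125 bases before that start of Tnfaip3 and 186 bases before the upstream start of Nlrp3, and 8.46% of all windows hold a match on either strand. The windows of Tnf, Il1a, Il1b, Il18, Nek7, Casp1 and Pycard held no match to it, which says only that these letters are not in these windows. The AP-1 motif TGANTCA, in 7.81% of windows, lay 12 bases before the start of Il1a, within the sequence shown. It also lay 136 bases before the start of Tnfaip3 used above. The other RefSeq start of Tnfaip3, chr10:19011963, had none of these motifs in its window. In the GENCODE M21 annotation, the stretch shown for Tnfaip3 lies inside the gene (chr10:19000910-19015657), and only 30 bases of it are given.

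Among the 10 genes, the adaptor RNA was the most abundant, and the RNAs of the cytokines TNF and IL-1β were close to absent. Pycard led in every group when levels were divided by exon length (GENCODE M21), at 67.7, 91.98, 83.6 and 83.4 CPM per kb. Nfkbia was in place 2 in 3 groups, with 54.9, 48.4 and 46.7 CPM per kb. In knockout gated cells Casp1 (28.1 CPM per kb) and Nfkbia (27.9 CPM per kb) had overlapping counting intervals. At the other end, Tnf, Il1b and Tnfaip3 took the last 3 places in every group, and none of them exceeded 3.73 CPM per kb. Places between these moved: Il1a was in place 3 among wild-type unselected cells with 50.2 CPM per kb and in place 7 among knockout unselected cells with 18.9. Nek7 moved the other way, from place 7 with 3.31 CPM per kb to place 4 with 25.99. Counting intervals of Il18 and Nlrp3 overlapped in wild-type unselected cells, and those of Nek7 and Il18, Nlrp3 and Il1a, and Tnfaip3 and Il1b in knockout unselected cells.

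**Figure D1:**
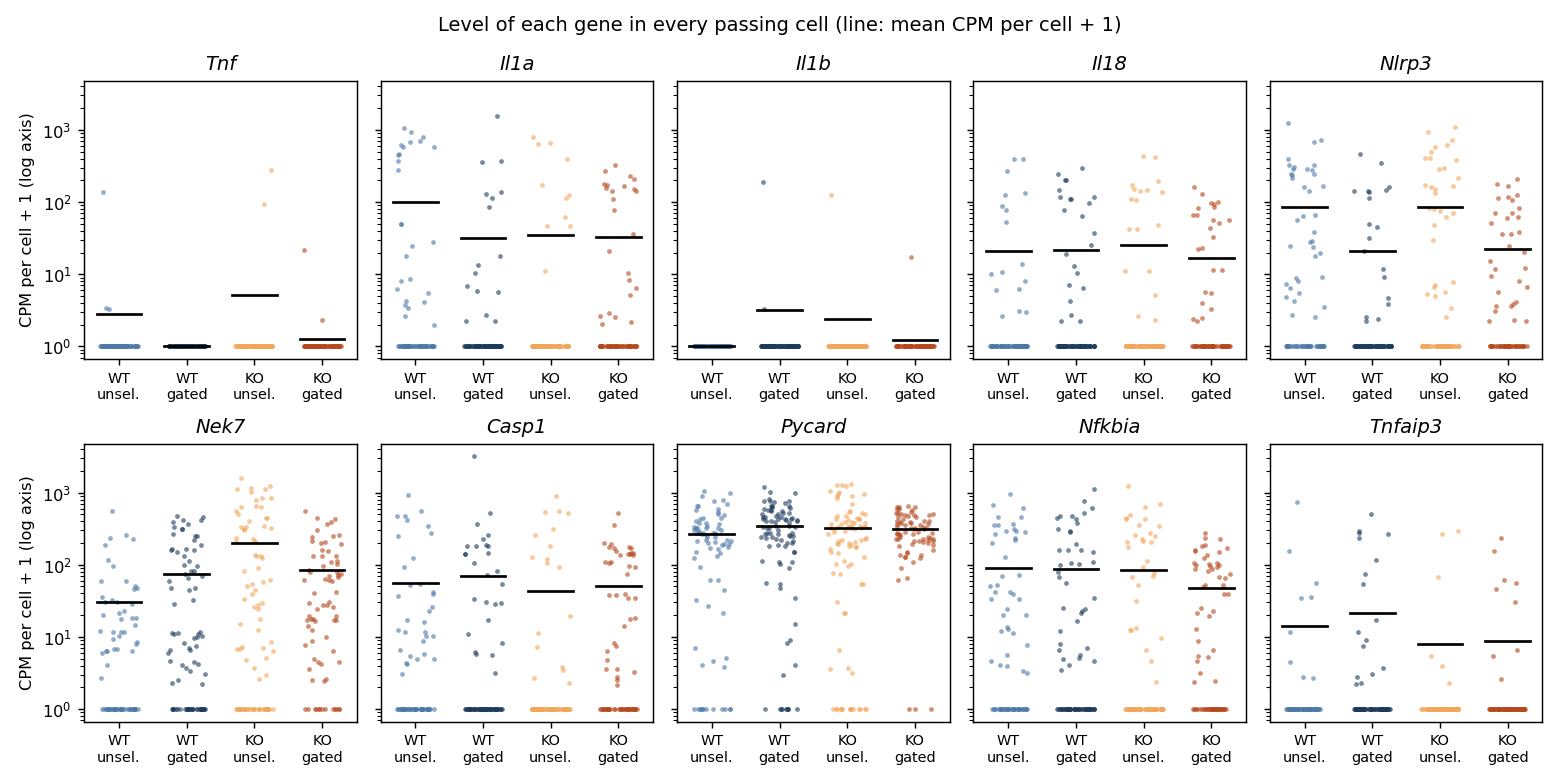
Level of each gene in every passing cell (vertical axis, CPM per cell plus 1, log axis) in the 4 groups (WT, wild type, and KO, knockout; unsel., unselected), with a line at the mean. Pycard forms a band in all 4 groups, whereas Tnf and Il1b are at 0 in nearly all cells and rest on 0 to 3 points per group.

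Tnf, which encodes the cytokine TNF, was measured in very few cells. Its counts came from 3 of 78 wild-type unselected cells, with 136, 2.37 and 2.32 CPM, and from 2 of 90 knockout unselected cells, with 278 and 94.0 CPM. Both knockout gated cells with Tnf counts were low, at 20.4 and 1.32 CPM. In 90 wild-type gated cells no count was seen, which allows a share of cells with a count of up to 3.33% by the limit of 3 cells (4.02% by the Clopper-Pearson interval). The summed levels were 0.821 CPM (0.562 to 1.16), 0, 6.12 (5.49 to 6.79) and 0.297 (0.166 to 0.490), and 1 cell held 83.9% to 93.8% of the counts wherever there were any.

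Il1b, the cytokine precursor cut by caspase-1, was rarer still. No count was seen in 78 wild-type unselected cells, which allows a share of up to 3.85% by the limit of 3 cells (4.62% by the Clopper-Pearson interval). One wild-type gated cell had 191 CPM and another had 2.35 CPM, 1 knockout unselected cell had 126 CPM and 1 knockout gated cell had 16.1 CPM. No cell had counts of both Tnf and Il1b. Each cell with Tnf or Il1b counts had 8 to 10 of the 10 microglia markers at 10 CPM or more and at most 1 of the 10 monocyte markers. Markers of border-associated macrophages, the macrophages of meninges and vessels, reached 10 CPM in numbers of 3 in both wild-type gated cells with Il1b and of 2 and 4 in the knockout gated cells with Tnf, and in numbers of 0 or 1 in the others. One of the wild-type unselected cells with a single Tnf count had 2 neutrophil markers. Without cells bearing at least 2 such markers, Il1b was at 0 in both wild-type groups.

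Il1a, an alarmin cytokine that needs no cleavage to act, was carried by a minority of cells at high levels. Shares of cells with a count were 26.9% (17.5% to 38.2%), 14.4% (7.92% to 23.4%), 12.2% (6.26% to 20.8%) and 25% (15.8% to 36.3%). The median cell was at 0 in every group, and the highest cells reached 1053, 1553, 802 and 324 CPM. The summed level was 99.1 CPM in wild-type unselected cells against 30.9, 37.3 and 33.7 CPM in the other groups, so the knockout gated cells had a share near that of the wild-type unselected cells at a lower level. In wild-type gated cells 61.01% of all Il1a counts came from 1 cell. Il1a shares 222 exon bases with Gm14023 on the opposite strand, itself at 4.02 to 12.3 CPM, and whether the counting used strand is not stated in the sources used here.

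Il18, the other caspase-1 substrate, was at 23.3 CPM (21.8 to 24.8), 22.3 (21.02 to 23.6), 25.7 (24.4 to 27.01) and 15.6 (14.6 to 16.8), with no pair of compared groups 2-fold apart. Between 14.1% and 27.6% of cells had a count, and the highest cells lay between 162 and 432 CPM. Knockout gated cells had the largest share of cells and the lowest level, so no order was read from the shares.

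**Figure D2:**
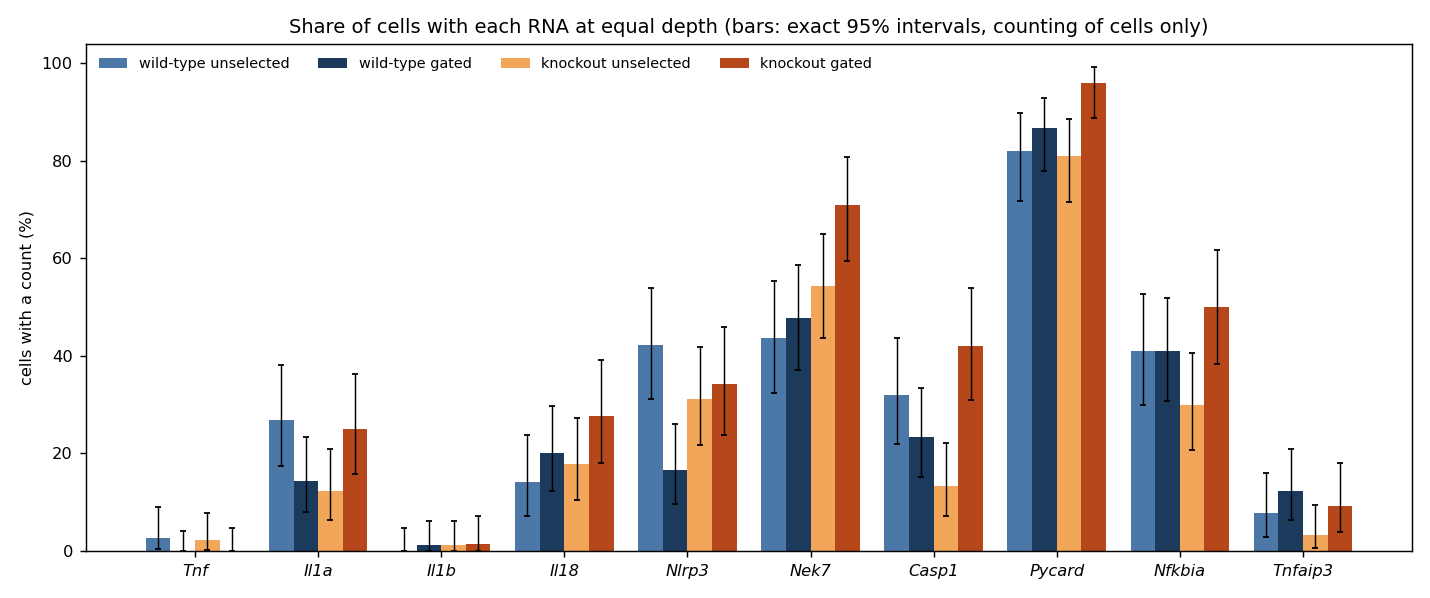
Share of passing cells (vertical axis, percent) with at least 1 count of each gene after thinning to 100000 gene counts, by group, with exact Clopper-Pearson 95% intervals. Pycard lies between 81.1% and 96.1%, Nek7 between 43.6% and 71.1%, and Tnf and Il1b at or below 2.56%.

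The inflammasome core was present in many cells but seldom complete in 1 cell at this depth. Pycard was detected in 82.1%, 86.7%, 81.1% and 96.1% of cells. Its level in the median cell was 219, 313, 229.5 and 285 CPM, and its summed level ranged from 257 to 350 CPM. Casp1, the protease, was at 54.8, 49.4, 41.6 and 42.03 CPM, with counts in 32.1%, 23.3%, 13.3% and 42.1% of cells. A single wild-type gated cell reached 3176 CPM of Casp1, and the highest cells of the other groups lay between 519 and 924 CPM. Nlrp3, Pycard and Casp1 were detected together in 13 of 78, 3 of 90, 4 of 90 and 14 of 76 cells. With Nek7 added the numbers were 8, 3, 3 and 9, and with Il1b added they were 0 in every group. The median cell had counts of 2, 3, 2 and 4 of the 10 genes. Depth of detection moved with these shares: thinned cells with a Pycard count had a median of 2396, 2760.5, 2077 and 3621 detected genes, and those without one 1697, 1828, 1512 and 2093. The part of detection in the joint shares was not tested.

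Nlrp3, the sensor, was lower in the gated cells of both genotypes. Unselected cells had 83.4 CPM (80.5 to 86.3) in wild type and 82.04 CPM (79.7 to 84.4) in the knockout, against 22.8 CPM (21.5 to 24.1) and 23.2 CPM (21.9 to 24.5) in the gated cells. Cells at 100 CPM or more numbered 17 of 78 and 17 of 90 in the unselected groups and 8 of 90 and 7 of 76 in the gated groups, and the median cell was at 0 in all 4. The highest cells were at 1229 and 1105 CPM unselected and at 456 and 206 CPM gated, so single-cell values overlapped widely. The share of cells with a count was 42.3%, 16.7%, 31.1% and 34.2%, so in the knockout the share goes against the level and no order was read from it.

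Nek7, the kinase partner of NLRP3, differed 7.86-fold between its lowest and highest group. It stood at 24.4 CPM (22.9 to 26.004), 79.7 (77.3 to 82.1), 192 (188 to 195) and 90.4 (87.8 to 93.1). The shares of cells with a count were closer together, at 43.6%, 47.8%, 54.4% and 71.1%. Before thinning, 51.3%, 64.4%, 64.4% and 82.9% of cells had a count, and the median level in those cells was 18.1, 52.4, 132 and 60.6 CPM. A level of 100 CPM or more was reached by 6 of 78, 21 of 90, 31 of 90 and 21 of 76 cells. No single cell made the knockout unselected value, since its highest cell (1580 CPM) held 8.00% of the counts. Transcripts on the opposite strand overlap 118 exon bases of Nek7 (Gm28501), 485 of Pycard (Gm45205) and 25 of Il1b (Il1bos), and were not analysed here.

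The 2 inhibitors of NF-kB signalling differed from each other. Nfkbia, which encodes the inhibitor that holds NF-kB in the cytosol, was at 88.3, 77.9, 75.3 and 44.98 CPM, with counts in 41.03%, 41.1%, 30% and 50% of cells. Tnfaip3, which encodes a ubiquitin-editing enzyme that ends NF-kB signalling, was at 13.4, 24.9, 6.01 and 10.12 CPM, with counts in 7.69%, 12.2%, 3.33% and 9.21% of cells. Its counts were concentrated: 1 cell held 67.8%, 31.5%, 48.8% and 42.9% of them.

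**Figure D3:**
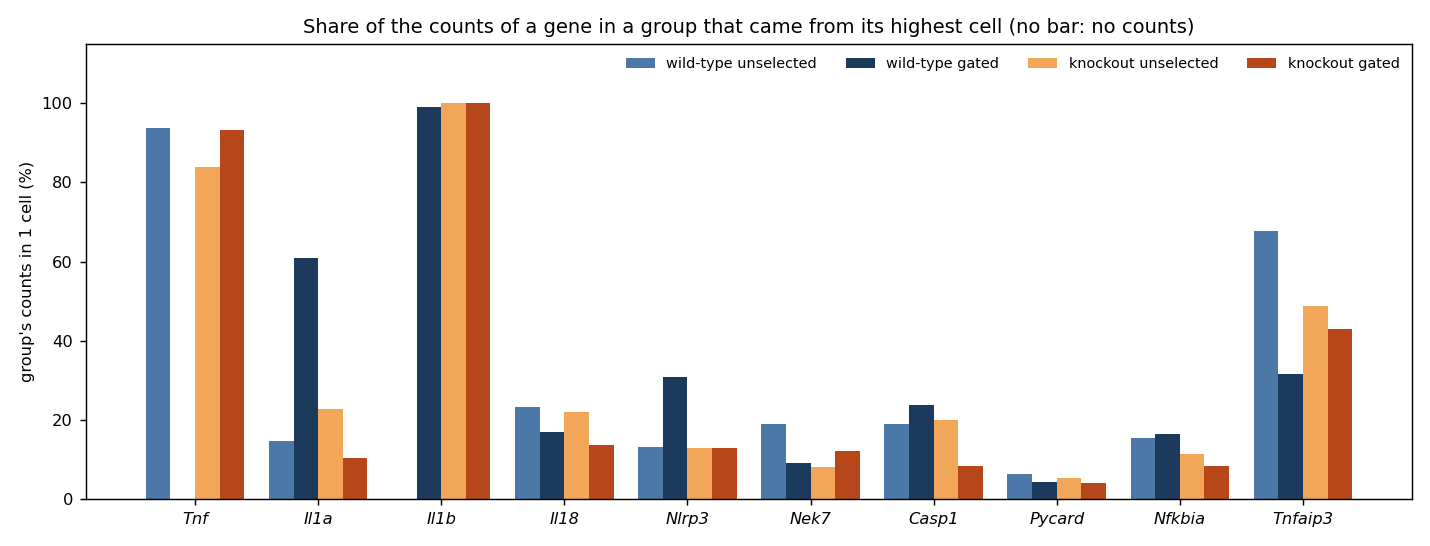
Share of a gene's counts in a group that came from the 1 cell with the most (vertical axis, percent), by gene and group. The bars of Tnf and Il1b lie between 83.9% and 100% wherever there were counts, those of Tnfaip3 between 31.5% and 67.8%, and those of Pycard at 6.33% or below.

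The first comparison asked how the gated wild-type cells differ from the unselected ones. Differences are log2 ratios of (level + 1 CPM), which understate differences of low genes. A gene was measured with 5 CPM or more in either group, and called where it differed 2-fold in summed counts and in the same direction in the mean of the cells' CPM. Of the 8 members measured, Nek7 was higher in gated cells and Nlrp3 and Il1a were lower. Among all 9879 measured genes 14.3% were called higher and 20.5% lower, and the median difference was -0.16 over all genes and -0.10 over the 8 members. Nek7 differed by 1.67 (counting interval of the CPM ratio 1.61 to 1.81), Nlrp3 by -1.83 (-1.97 to -1.78) and Il1a by -1.65 (-1.77 to -1.60). Leaving out the highest cell of Il1a in each group moved its difference to -2.72. The rest of the measured members lay between -0.18 for Nfkbia and 0.85 for Tnfaip3, and Tnfaip3 was at 1.77 without its highest cell in each group, which is a call, and at -0.40 without cells bearing markers of other myeloid cells.

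In the knockout, gated cells had lower Tnf, Nlrp3 and Nek7 than unselected cells and no member was called higher, out of 9 measured. Of all 9882 measured genes 11.6% were called higher and 22.6% lower, with a median of -0.29 (members, -0.68). Nlrp3 differed by -1.78 (-1.92 to -1.73), close to its wild-type value, and Nek7 by -1.08 (-1.13 to -1.03). The Tnf difference of -2.46 rests on 4 cells, and without the highest cell in each group it was -0.97 and no call. Tnf passed the filter of 5 CPM only through knockout unselected cells (6.12 CPM), so a call could only be lower with the gate. Nek7 was thus higher in the gated cells of wild type and lower in those of the knockout. The 2 gate differences lie -2.74 apart, which has no replicate and was not tested.

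The scaling moved part of the knockout result. Library sizes were also scaled to the spike-in RNAs. This sets each group by RNA per cell, rather than by share of RNA, only if every cell received the same spike-in amount. Whether the amounts were equal across plates was not tested. With this scaling the median gene was 1.00 higher in knockout gated than in knockout unselected cells. On that scale Nek7 was at 0.25 and Nlrp3 at -0.48, neither of them called. Relative to the median gene these 2 stood at -0.75 and -1.48. Il1a (1.16), Casp1, Pycard and Tnfaip3 were called higher, 4 of 8 members measured. Of all measured genes 52.7% were called higher on that scale and 3.97% lower, so the 4 calls are near the share of all genes. In wild type the median gene was 0.30 higher with this scaling, and Nek7 at 2.13, Nlrp3 at -1.37 and Il1a at -1.19 were still called. Nek7 in the knockout was not called with TMM factors (-0.81) or median-of-ratios factors (-0.83) either.

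Markers of border-associated macrophages were higher in both gated groups than in the unselected groups. In each genotype 9 of 10 were called higher (all genes, 14.3% in wild type and 11.6% in the knockout). Only 2 of the 10 reached 5 CPM in each unselected group, against all 10 in each gated group. The rest passed the filter only through gated cells, so for them a call could only be higher. After thinning, the median gated cell of either genotype also had counts of 9 of the 10 microglia markers. Which cell type made the border-macrophage RNAs was not tested. The summed level of these 10 markers was 378, 1115, 493 and 926 CPM. F13a1, Cd209f and Siglec1 were at 0 in both unselected groups. When cells with at least 2 markers of these macrophages, of monocytes or of neutrophils at 10 CPM or more were left out (11, 38, 20 and 60 cells), the wild-type differences were 1.64 for Nek7, -2.30 for Nlrp3 and -1.28 for Il1a. In the knockout, where 16 gated cells were left, Nek7 was at -2.27 and Nlrp3 at -0.76. RNAs induced by cell dissociation, a list of 18, were also lower with the gate, at 912 against 629 CPM in wild type and 823 against 524 CPM in the knockout. Their part in the member differences was not tested.

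**Figure D4:**
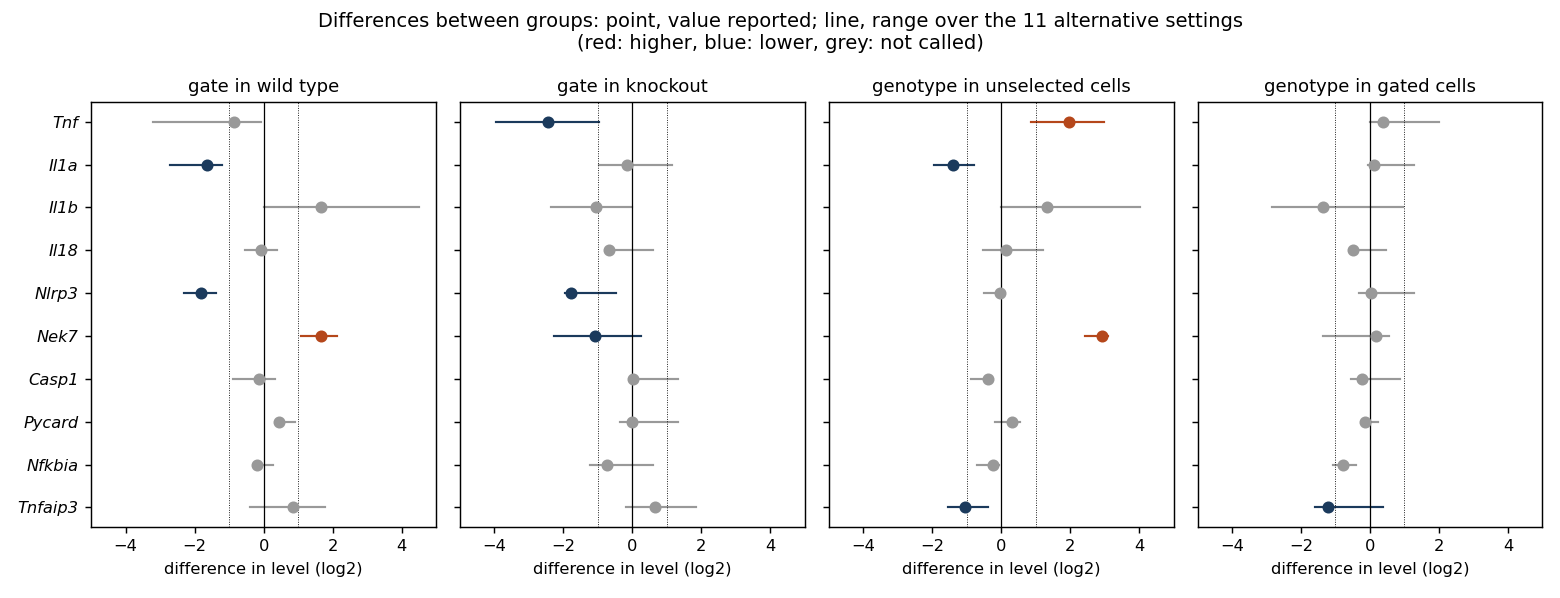
Difference of each gene in the 4 comparisons (horizontal axis, log2 of level + 1 CPM; gated minus unselected for gate, knockout minus wild type for genotype). Points are the values in the text, lines the range over 11 alternative settings, and dotted lines mark 2-fold; Nek7 is at 1.67, -1.08, 2.92 and 0.18.

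Between genotypes in unselected cells, Nek7 and Tnf were higher in the knockout and Il1a and Tnfaip3 were lower, of 9 members measured. Of 9929 measured genes, 16.1% were called higher and 13.2% lower, and the median was 0.07 (members, -0.02). Nek7 was 7.86-fold higher by summed CPM, a difference of 2.92 (2.88 to 3.07), and stayed between 2.43 and 3.102 over 11 alternative settings. The Tnf difference of 1.97 came from the 5 cells listed above, and was 0.93 without the highest cell in each group. Here too Tnf passed the filter only through knockout unselected cells, so a call could only be higher in the knockout. Il1a differed by -1.39 (-1.49 to -1.33), and by -0.80 when 60 cells per group were matched on the number of detected genes. Tnfaip3 was at -1.04, but at -0.39 without its highest cell in each group, so the call rests on its highest cells (731 CPM in wild type, 295 CPM in the knockout). Nlrp3 was level between the genotypes, with a difference of -0.02 (-0.09 to 0.04), and Il18 at 0.14, Nfkbia at -0.23, Pycard at 0.30 and Casp1 at -0.39 were within the 2-fold bound. With cells matched on detected genes Il18 was at 1.22 and called higher.

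Between genotypes in gated cells, Tnfaip3 was the 1 member called, lower in the knockout, of 8 measured. Among 9659 measured genes 10.5% were called higher and 12% lower, with a median of -0.02 (members, -0.18). Tnfaip3 differed by -1.22 (-1.45 to -1.15). Its highest wild-type gated cell (508 CPM) had 7 of 10 markers of border-associated macrophages at 10 CPM or more beside all 10 microglia markers, and without the cells that carried such markers the difference was 0.37 in the opposite direction. With 54 cells per group matched on detected genes it was -0.44. Nfkbia was at -0.78, short of 2-fold. Nek7 was at 0.18, and at -1.36 and called lower without the cells bearing other myeloid markers.

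Other genes of the same pathways were counted by the same rule, with the shares called over all measured genes in brackets. A count near its share is no result about the list. A gene under 5 CPM in 1 of the 2 groups passed the filter only through the other, so its call could go only 1 way. Among the genes named below, this held for Osm, Ccl7, Casp4, Nlrp1b, Nlrp1a, Il1rap, Relb, Nfkbid and Fos, and for Il1rn with the gate. Such genes enter the list counts and the shares over all genes alike. How far the list genes rest on single cells or on the scaling was not examined. Of 20 further early cytokines and chemokines, Il10, Il12a, Il12b, Il23a, Lif, Cxcl1, Cxcl2, Cxcl10 and Ptgs2 had 0 counts in all 4 groups and Il6 in 3. The gate in wild type went with 5 higher and 0 lower of 8 measured (all genes, 14.3% higher and 20.5% lower). The higher were led by Csf1, a growth factor for macrophages (146 against 21.8 CPM, 2.68), and the chemokine Ccl3 (202 against 36.4 CPM, 2.44). In the knockout 2 were higher and 2 lower of 7 (all genes, 11.6% higher and 22.6% lower). Csf1 (257 against 44.4 CPM, 2.51) and Ccl3 (153 against 73.3 CPM, 1.05) were higher. The chemokines Ccl12 (10.5 against 73.3 CPM, -2.70) and Cxcl16 (8.75 against 39.6 CPM, -2.06) were lower. In gated cells 6 of 8 were lower in the knockout and 0 higher (all genes, 12% lower and 10.5% higher). Among the lower were Ccl4 (12.02 against 50.1 CPM, -1.97) and Ccl7, which went from 14.9 CPM to 0 counts. In unselected cells 1 of 8 was called (all genes, 16.1% higher and 13.2% lower). It was Osm, a cytokine of the IL-6 family, higher in the knockout at 10.07 against 4.31 CPM.

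Of 24 other inflammasome sensors, partners and effectors, 5 were higher and 2 lower of 20 measured with the gate in wild type (all genes, 14.3% higher and 20.5% lower). Casp4, the caspase that senses cytosolic lipopolysaccharide, was among the higher at 16.5 against 2.49 CPM, and the sensor Nlrp1b was lower at 2.90 against 20.7 CPM. In the knockout 1 was higher and 2 lower of 19 (all genes, 11.6% higher and 22.6% lower). The ATP-gated channel P2rx4 (272 against 129 CPM) was higher and Txnip, which binds thioredoxin, lower (120 against 329 CPM). Between genotypes, 5 were higher and 1 lower of 20 in unselected cells (all genes, 16.1% higher and 13.2% lower). The sensor Nlrp1a was at 23.7 against 2.13 CPM and Brcc3, a deubiquitinase, at 26.1 against 6.83 CPM. In gated cells 2 were higher and 3 lower of 20 (all genes, 10.5% higher and 12% lower). Casp4 (3.21 against 16.5 CPM) and P2rx7, the ATP receptor upstream of NLRP3 (98.9 against 235 CPM), were among the lower.

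Receptors and adaptors of IL-1, IL-18 and TNF were 3 higher and 2 lower of 15 measured with the gate in wild type (all genes, 14.3% higher and 20.5% lower). In the knockout they were 2 higher and 0 lower of 16 (all genes, 11.6% and 22.6%). Irak3 and Il1rn, both restrainers of IL-1 signalling, were higher in both: Il1rn, the IL-1 receptor antagonist, went from 0 counts without the gate to 8.18 CPM with it in wild type, and from 1.62 to 29.99 CPM in the knockout. Between genotypes 3 were higher and 0 lower of 14 in unselected cells (all genes, 16.1% and 13.2%), led by the kinase Ripk1 (76.7 against 17.4 CPM). In gated cells 2 were higher and 0 lower of 16 (all genes, 10.5% and 12%), Il1rap (15.2 against 3.37 CPM) and Il1rn. Il18r1, the receptor for IL-18, was at 0 counts in all groups.

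Among 28 NF-kB factors, kinases and inhibitors, the counts were 2 higher and 4 lower of 26 with the gate in wild type, 3 and 6 of 27 in the knockout, 3 and 5 of 26 between genotypes in unselected cells and 2 and 5 of 27 in gated cells. All measured genes also leaned lower in 3 of these comparisons, with 14.3% higher and 20.5% lower, 11.6% and 22.6%, 16.1% and 13.2%, and 10.5% and 12% in the same order. Nfkb1, the precursor of the p50 subunit, was at 43.2 CPM in wild-type gated against 141 CPM in unselected cells. Relb, another subunit, was at 1.72 CPM with the gate and 18.4 CPM without it in the knockout, and at 11.96 CPM in gated wild-type cells. Nfkbid, an atypical nuclear inhibitor, was at 2.297, 18.3 and 16.9 CPM in the same groups. Of the 18 dissociation-induced genes 3 were higher and 6 lower of 14 with the gate in wild type and 2 and 6 of 14 in the knockout, Fos among the lower in both (0.130 against 10.14 CPM, and 0 counts against 8.17 CPM). Between genotypes they were 2 higher and 0 lower of 13 in unselected cells and 2 and 1 of 12 in gated cells.

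Within groups the members moved together only weakly from cell to cell. Spearman's rho on thinned CPM was averaged over the groups where both genes had counts. The pair with the highest mean was Il18 and Tnfaip3, at 0.22 (range -0.01 to 0.36 over 4 groups), and the means of Nlrp3 with Pycard, Casp1 and Nek7 were 0.05, 0.07 and 0.04. These points share their plates and depths, and correlations of this size in sparse counts are no finding. Nek7, Pycard and Nfkbia had counts in at least 25% of the cells of every group, and genes among the most like them of 2598 compared were at similarly low values: Tmpo (0.25) and Cxxc5 (0.24) for Nek7, Plek (0.23), Vps28 (0.22) and Glrx3 (0.21) for Pycard, and Pxk (0.27), Cd302 (0.27) and Cnpy2 (0.24) for Nfkbia.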

How the data were processed

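The values are raw read counts for each gene in each cell, as deposited by the authors; the submitters' processing notes name STAR 2.5.3a, HTSeq, Picard and Trim Galore 0.4.3 with the mm10 build. The gene annotation and the strand setting of the counting are not stated there. Column sums equalled the totals in the labels for every cell, and 0 columns were identical. The 92 spike-in rows (3.56% of counts) stayed out of library sizes. The unit is 1 cell per well, so no doublets were called. The counts were summed per group and given in CPM with exact Poisson intervals; ratios have conditional binomial intervals, shares Clopper-Pearson intervals, and a count of 0 is given a limit of 3 counts. No model was fitted, since each group is 1 sample. TMM factors (edgeR 4.0.16) and median-of-ratios factors (DESeq2 1.42.0) served as alternative scalings. The call rule was checked on simulated cells with genes changed by known folds. These cells had counting spread only and none between cells or plates, so the check cannot give the rate of false calls in the real data. Exon lengths are from GENCODE M21. The members and lists were chosen with earlier results of these data known. Named genes were the 10 members, Trem2, up to 2 called higher and 2 called lower per pathway list and comparison with the largest log2, and 3 most alike genes for 3 members, of which 1 is not reported here. Genes named only as being at 0 counts, cell-type markers and the antisense transcripts were chosen after their values were seen. All 193 list symbols matched, 3 by an older name. Counts of list members carry no test. The 9 cell-type lists were read for their levels. Lymphocyte, neuron and monocyte markers summed to at most 10.3 CPM in any group, endothelial markers to 36.2, oligodendrocyte-lineage markers to 31.0 and astrocyte markers to 68.6. The neutrophil list stood at 226 to 287 CPM with S100a9, Ngp, Ltf, Lcn2 and Mmp8 at 0.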

Additional observations from a re-analysis of the deposited data

Results flagged for a closer look

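Nek7 was flagged because its gate differences had opposite signs in the 2 genotypes. It was 1.67 (log2) higher in gated than in unselected wild-type cells and 1.08 lower in the knockout (-1.08), a difference between the gate differences of -2.74. Each group is 1 sample, so this difference was not tested, and with spike-in scaling the knockout value was 0.25.

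Cells that failed the quality criteria were looked at as data outside the comparisons. Of 35 such cells 15 had 100000 gene counts or more, and in these Casp1 stood at 207 CPM and Nfkbia at 102 CPM, both above the level of every group of passing cells. Of the Casp1 counts, 892 came from 7 wild-type unselected cells, 6 of them with a count, which together were at 505 CPM. Among these, 1 cell held 45.2% of the Casp1 counts of all 15 cells. A single knockout unselected cell (526 CPM) held 74.2% of the Nfkbia counts. Tnf and Il1b had 0 counts in all 35 cells.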

How the results depend on the processing

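No paired analysis was possible because each group is 1 sample (1 plate), and equal well numbers on different plates name no shared source. In 15 alternative settings the 2 members called lower with the gate in wild type (Il1a and Nlrp3) and the call of Nek7 higher there did not change, and Nek7 stayed higher in knockout unselected cells. The other counts of called members moved. Shares over all measured genes were computed only for spike-in scaling, cells matched on detected genes and the highest cell left out. In that order, 24.6%, 16.25% and 17.1% were called higher with the gate in wild type. With the gate in the knockout, 27.6% were called lower with matched cells and 18.7% without the highest cell. Counts in the other settings have no such share beside them and are no result about the members. For the gate in wild type, 2 members were higher instead of 1 with TMM factors, spike-in scaling, the highest cell of each gene left out, no filter on level, or a fold of 1.5. For the gate in the knockout, 4 were higher instead of 0 with spike-in scaling, where 52.7% of all measured genes were called higher and 3.97% lower. There was 1 higher without cells bearing other macrophage, monocyte or neutrophil markers or at a fold of 1.5. Lower members numbered 0 instead of 3 with spike-in scaling, 5 at a fold of 1.5, 4 with matched cells or no filter, and 2 in 8 other settings. Between genotypes in unselected cells, 1 was higher instead of 2 by mean CPM per cell, spike-in scaling, thinned cells, the highest cell left out, a filter of 20 CPM or a pseudocount of 5 CPM, and 3 with matched detected genes (Il18 added) or no filter. The same settings except spike-in scaling left 1 lower instead of 2, and 0 were lower with matched detected genes or a fold of 3. Of all genes in that comparison, 8.28% were called higher with spike-in scaling, 20.3% with matched cells and 17.8% without the highest cell. Called lower were 23.6%, 15.4% and 13.2% in the same order. In gated cells, 1 was higher instead of 0 without the highest cell (Il1a) or without cells bearing other markers (Nlrp3). There, 0 were lower instead of 1 with spike-in scaling, matched detected genes, a fold of 3 or a pseudocount of 5 CPM, and 2 were lower with thinned cells, without cells bearing other markers (Nek7 and Nfkbia), with no filter or at a fold of 1.5. Of all genes in gated cells, 13.8% were called higher without the highest cell. Called lower were 8.34% with spike-in scaling and 14.2% with matched cells. Of 11 called differences, 7 were not called in at least 1 of 11 settings and 2 changed sign: Nek7 with the gate in the knockout (0.25 with spike-in scaling) and Tnfaip3 between genotypes in gated cells (0.37 without cells bearing other markers). Of 29 differences not called, 19 had the opposite sign in at least 1 setting and 11 were called in at least 1. Settings with fewer cells or genes test less by construction; otherwise the cause was not tested. Keeping the cells that failed the quality criteria changed no count. At this depth, Tnf and Il1b rest on 0 to 3 cells per group, and no difference in their share of cells was detectable.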
